A study of Mus musculus with 10 samples.

Results

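The nerve and Schwann cell genes were 7 protein-coding genes, *Mbp*, *S100b*, *Sox10*, *Ngfr*, *Gfra3*, *Uchl1* and *Prph*, chosen by name as markers of peripheral nerve from the 55536 genes counted in mouse bladder. All 7 were matched to 1 gene identifier each, and all 7 had enough reads to be tested in every comparison. Bladder RNA of C57BL/6 mice (C57BL/6J in the study's text) was sequenced after poly(A) selection, with a strand-specific protocol, as 4 libraries of wild type (*WT*) mice, 3 of mice lacking osteomodulin (OMD-/-) and 3 of mice lacking PRELP (PRELP-/-). Osteomodulin and PRELP are secreted proteoglycans of the extracellular matrix. The labels name no treatment, age, transgene or further allele. The deposited records describe homogenised bladder tissue, whereas the study speaks of bladder epithelia. The labels do not say whether each library came from a separate animal, and the study's text counts fewer *WT* mice than the *WT* libraries here and more OMD-/- mice. The tests therefore measure the spread between these libraries, which may be technical in part.

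Axons reach the bladder wall in autonomic and sensory nerves, and their cell bodies lie mostly in ganglia outside it. Schwann cells accompany these axons. Some wrap a single axon in myelin and others hold bundles of thin axons without it, and their identity depends on the transcription factor SOX10. Growth factors of the neurotrophin and glial cell line-derived neurotrophic factor families signal from the tissue to receptors on these cells.

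Across the libraries 20391437 to 46269079 reads were counted, with *WT* replicate 1 the deepest. *Prelp* had 4848 to 15890 counts in *WT*, 16374 to 19429 in OMD-/- and 46 to 74 in PRELP-/-, while *Omd* had 0, 1, 8 and 12 counts in *WT*, 5 to 7 in PRELP-/- and 0 in each OMD-/- library, so *Omd* is nearly absent from controls and checks the OMD-/- label only weakly. PRELP-/- replicate 1 stood apart. Over genes with at least 20 counts in a pair, its mean chi-square against the other libraries was 189 to 336, where 1 is counting noise alone. Other libraries formed close pairs, with values of 3.1 for OMD-/- replicates 2 and 3, 3.57 for PRELP-/- replicates 2 and 3, 8.3 for *WT* replicates 3 and 4, and 11.6 for *WT* replicates 1 and 2. OMD-/- replicate 1 was closer to PRELP-/- replicates 2 and 3 (11.8 and 15.8) than to OMD-/- replicates 2 and 3 (26.8 and 24.5). Reads of Y-linked genes also divided the *WT* group, with 188 and 163 CPM (reads of a gene scaled to a common library size) in replicates 1 and 2 and at most 0.0439 CPM in replicates 3 and 4. They were at 18.4, 0.811 and 0.733 CPM in OMD-/- replicates 1 to 3 and at 117, 19.0 and 18.7 CPM in PRELP-/- replicates 1 to 3. A set of 6 nuclear long noncoding RNAs summed to 1550 to 1780 CPM in *WT*, 304 to 371 CPM in OMD-/- and 199 to 264 CPM in PRELP-/-. The part of these differences in the results below was not tested.

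The letters upstream of 3 of the genes are shown because *Uchl1* and *Prph*, the neuronal markers among the 7 genes, differed widely in level. *S100b* is shown as the Schwann cell gene whose window matched a loose SOX pattern. RefSeq windows of build GRCm38.p6, from 250 bases before to 50 bases after the annotated start, were found for *S100b*, *Ngfr*, *Uchl1* and *Prph*. Capitals mark matches, on either strand, to the SOX motif ACAANG or to the TATA motif TATAAA. *S100b* (chr10:76253586-76253885, plus strand) held 1 SOX match at its 5′ edge, read here on the opposite strand. *Prph* (chr15:99054924-99055223, plus strand) held 1 SOX and 1 TATA match, and *Uchl1* (chr5:66675871-66676170, plus strand) held neither.
Uchl1: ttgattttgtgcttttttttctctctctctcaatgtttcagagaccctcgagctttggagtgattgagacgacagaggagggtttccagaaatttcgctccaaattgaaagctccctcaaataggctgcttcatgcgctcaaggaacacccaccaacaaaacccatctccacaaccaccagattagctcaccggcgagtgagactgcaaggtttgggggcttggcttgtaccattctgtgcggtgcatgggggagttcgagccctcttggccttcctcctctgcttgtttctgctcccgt
Prph: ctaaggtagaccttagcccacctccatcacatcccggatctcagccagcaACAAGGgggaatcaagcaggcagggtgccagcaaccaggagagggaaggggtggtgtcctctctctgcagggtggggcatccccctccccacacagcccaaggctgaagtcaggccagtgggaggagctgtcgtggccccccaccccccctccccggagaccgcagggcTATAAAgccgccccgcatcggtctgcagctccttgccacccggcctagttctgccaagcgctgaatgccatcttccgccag
S100b: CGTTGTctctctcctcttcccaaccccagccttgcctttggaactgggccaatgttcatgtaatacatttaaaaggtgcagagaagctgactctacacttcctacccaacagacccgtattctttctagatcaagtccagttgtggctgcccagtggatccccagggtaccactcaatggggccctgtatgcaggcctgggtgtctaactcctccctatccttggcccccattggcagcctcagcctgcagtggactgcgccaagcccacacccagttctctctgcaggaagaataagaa
Of 32851 mouse windows of this length, 41.2% held the SOX motif and 13.6% the TATA motif, so a SOX match is common at these lengths. The window of *Ngfr* (chr11:95587649-95587948, minus strand) held neither. The third motif searched, GCGNGGGCG for the EGR factors, was in 5.55% of all windows and in 0 of the 4.

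In *WT* bladder the 7 genes spanned a wide range of levels. Per kilobase of exon, *Uchl1* stood at 307 ± 21 CPM (mean ± SD, n = 4, as for the other levels in this order), *Mbp* at 12.2 ± 0.455, *Gfra3* at 5.86 ± 0.254, *Prph* at 1.03 ± 0.333, *S100b* at 0.802 ± 0.407, *Ngfr* at 0.79 ± 0.172 and *Sox10* at 0.169 ± 0.0466. The ranges over the 4 libraries separated *Uchl1* from *Mbp*, *Mbp* from *Gfra3*, *Gfra3* from *Prph* and *Ngfr* from *Sox10*. *Prph*, *S100b* and *Ngfr* overlapped and had no order beyond their spread. The CPM used throughout were normalised by the trimmed mean of M-values (TMM) over all 10 libraries.

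The labelled cell types were checked against their defining markers. *Uchl1*, a ubiquitin hydrolase abundant in neurons, exceeded per kilobase every other gene of a 30-gene neuron and axon list in *WT*. It was 141 times as high as *Stmn2*, which encodes a growth-cone tubulin regulator, 299 times as high as *Prph* and 1940 times as high as *Tubb3*, the neuronal beta-tubulin. *Tubb3* had 0, 1, 14 and 12 counts in *WT* replicates 1 to 4, and *Nefl*, the neurofilament light chain, had 0, 0, 5 and 3. *Elavl3*, an RNA-binding protein of neurons, and *Chga*, of secretory granules, had at most 3 counts in every library of the series. Of 18 autonomic transmitter genes 8 had at most 3 counts in every library, among them *Th* for noradrenaline and *Chat* for acetylcholine synthesis. *Th* had 0 counts in each *WT* library, which allows up to 0.0596 to 0.132 normalised CPM per library (3 counts) by counting error alone. Other genes of the neuron and axon list were not near 0. *Map2*, a dendritic microtubule protein, had 190 to 490 counts in *WT*, and *Isl1*, a neuronal transcription factor that other cells also use, had 53 to 125. *Rbfox3*, which encodes the neuronal nuclear antigen NeuN, had 15, 2, 100 and 102 counts in *WT* replicates 1 to 4, 3 to 9 in OMD-/- and 0 in each PRELP-/- library. Per kilobase *Gata3*, which the urothelium also expresses, came next after *Uchl1* in this list at 104 ± 10.2 CPM (SD, n = 4).

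The glial markers were unequal in the same way. *Mbp*, myelin basic protein, was per kilobase 9.19 times as high as *Prx*, periaxin of the myelin sheath, and 273 times as high as *Mag*, the myelin-associated glycoprotein. *Pmp22* lay above it at 34.6 ± 0.607 CPM per kilobase (SD, n = 4). In the annotation 16 transcripts, 14 of them coding, share the *Mbp* count, including the longer golli forms made outside myelin, and a gene count cannot separate them. *Erbb3*, the neuregulin receptor of Schwann cells that epithelia also use, stood at 26 ± 2.94 CPM per kilobase, whereas *Cdh19* stood at 0.32 ± 0.16. Markers regarded as most typical of Schwann cells, *Sox10*, *S100b* and *Cdh19*, were thus present at low counts.

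**Figure D1:**
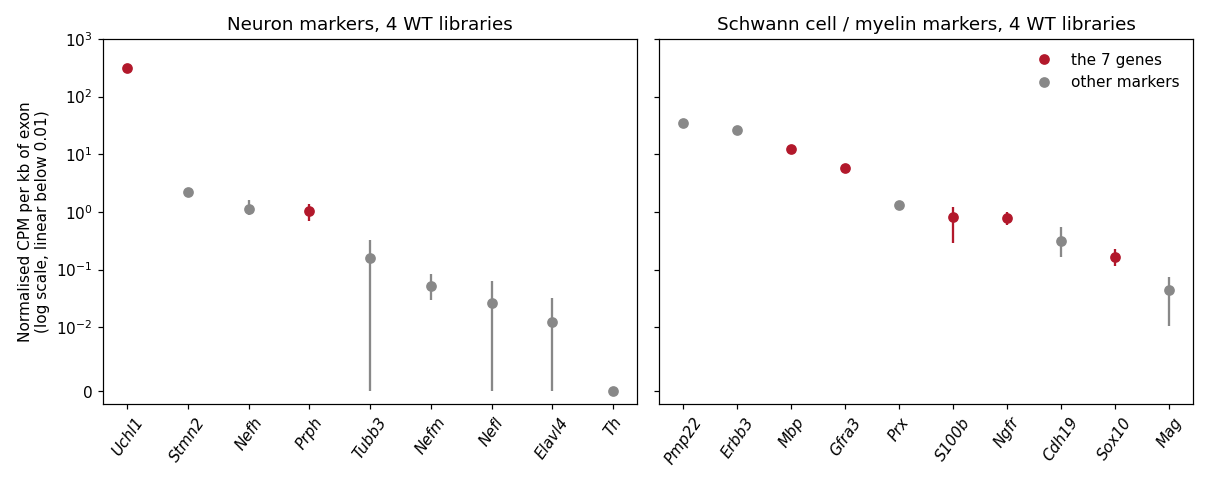
Levels of neuron markers (left) and Schwann cell and myelin markers (right) in 4 WT libraries, in normalised CPM per kilobase of exon on a log axis that is linear below 0.01. Points are means and lines run from the lowest to the highest library, with the genes described here in red. Uchl1 at 307 stands far above the next neuron marker plotted, Stmn2 at 2.18, and Mbp at 12.2 lies above Prx at 1.33 and Mag at 0.0447.

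The first comparison asked which of the 7 genes differed when either proteoglycan was absent. In OMD-/- against *WT* 1 of the 7 genes rose, *Sox10*, and 0 fell, with a median log2 fold change of 0.064. In PRELP-/- against *WT* 0 of the 7 genes passed an adjusted *p* of 0.05 by the quasi-likelihood test of edgeR, adjusted by the Benjamini-Hochberg method over every gene tested, with a median of 0.11. At an unadjusted *p* under 0.05 there were 2 genes in OMD-/- (*Sox10* and *Ngfr*) and 2 in PRELP-/- (*Gfra3* and *Uchl1*). At this threshold 6882 of all 16647 tested genes passed in OMD-/- and 4426 of 16581 in PRELP-/-, so these counts single out none of the 7 genes. Of all genes tested, 29.4% passed in OMD-/- (median log2 fold change -0.0002) and 7.29% in PRELP-/- (median 0.023), so 1 of 7 and 0 of 7 are not more than these shares. Both comparisons used the same *WT* libraries. In RNA from a mix of cells, fewer cells of a type and less RNA per cell cannot be told apart.

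*Sox10* (chr15:79154908-79165240, minus strand), the transcription factor that defines the Schwann cell lineage, was the gene with the fewest reads. It had 18, 11, 16 and 12 counts in *WT* replicates 1 to 4, 15, 46 and 29 in OMD-/- replicates 1 to 3, and 3, 25 and 12 in PRELP-/- replicates 1 to 3. As normalised levels these were 0.358, 0.48, 0.701 and 0.526 CPM in *WT*, 0.716, 1.96 and 1.33 CPM in OMD-/-, and 0.166, 1.01 and 0.559 CPM in PRELP-/-. Each OMD-/- library lay above each *WT* library, the lowest of them by a margin smaller than the *WT* spread, and the PRELP-/- libraries lay on both sides of *WT*. The log2 fold change in OMD-/- was 1.38 ± 0.422 (SE), with an adjusted *p* of 0.0305. It did not pass without OMD-/- replicate 2 (adjusted *p* = 0.182), OMD-/- replicate 3 (0.0908), *WT* replicate 1 (0.0533) or *WT* replicate 2 (0.0528), and 10 of 18 alternative settings kept the call. In PRELP-/- it was 0.20 ± 0.542, adjusted *p* = 0.843. The PRELP-/- value changed sign to -0.48 without PRELP-/- replicate 2.

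*Ngfr* (chr11:95568818-95587735, minus strand), the p75 neurotrophin receptor of immature and nonmyelinating Schwann cells and of some stromal cells, had 34 to 143 counts per library. Its levels were 2.84, 3.44, 2.02 and 2.59 CPM in *WT*, 3.25, 4.78 and 5.04 CPM in OMD-/-, and 1.88, 2.75 and 2.70 CPM in PRELP-/-. OMD-/- replicates 2 and 3, the close pair, lay above every *WT* library and replicate 1 lay among them, and the PRELP-/- libraries overlapped *WT*. The log2 fold change was 0.66 ± 0.242 in OMD-/- (adjusted *p* = 0.0616) and -0.18 ± 0.257 in PRELP-/- (adjusted *p* = 0.687). The OMD-/- change passed without OMD-/- replicate 1 (adjusted *p* = 0.0294) or *WT* replicate 2 (0.0424).

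*S100b* (chr10:76253853-76261159, plus strand) encodes a calcium-binding protein of Schwann cells and other glia. It had 6 to 50 counts per library and levels of 0.99, 0.44, 1.80 and 1.54 CPM in *WT*, 0.91, 0.55 and 1.05 CPM in OMD-/-, and 0.33, 0.81 and 0.84 CPM in PRELP-/-. *WT* replicates 3 and 4 were the highest of the 10 libraries and *WT* replicate 2 was among the lowest, so the groups overlapped. The log2 fold changes of -0.52 ± 0.474 in OMD-/- and -0.85 ± 0.528 in PRELP-/- did not pass (adjusted *p* = 0.441 and 0.331).

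*Mbp* (chr18:82475146-82585637, plus strand) had 1970 to 5334 counts per library. Its levels were 106, 108, 101 and 99.3 CPM in *WT*, 104, 113 and 113 CPM in OMD-/-, and 109, 119 and 113 CPM in PRELP-/-. Each PRELP-/- library was above each *WT* library by a small margin, and OMD-/- overlapped *WT*. The log2 fold changes were 0.06 ± 0.075 in OMD-/- and 0.11 ± 0.118 in PRELP-/- (adjusted *p* = 0.555 and 0.591), and both turned negative, to -0.10 and -0.12, when total counts replaced TMM scaling.

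**Figure D2:**
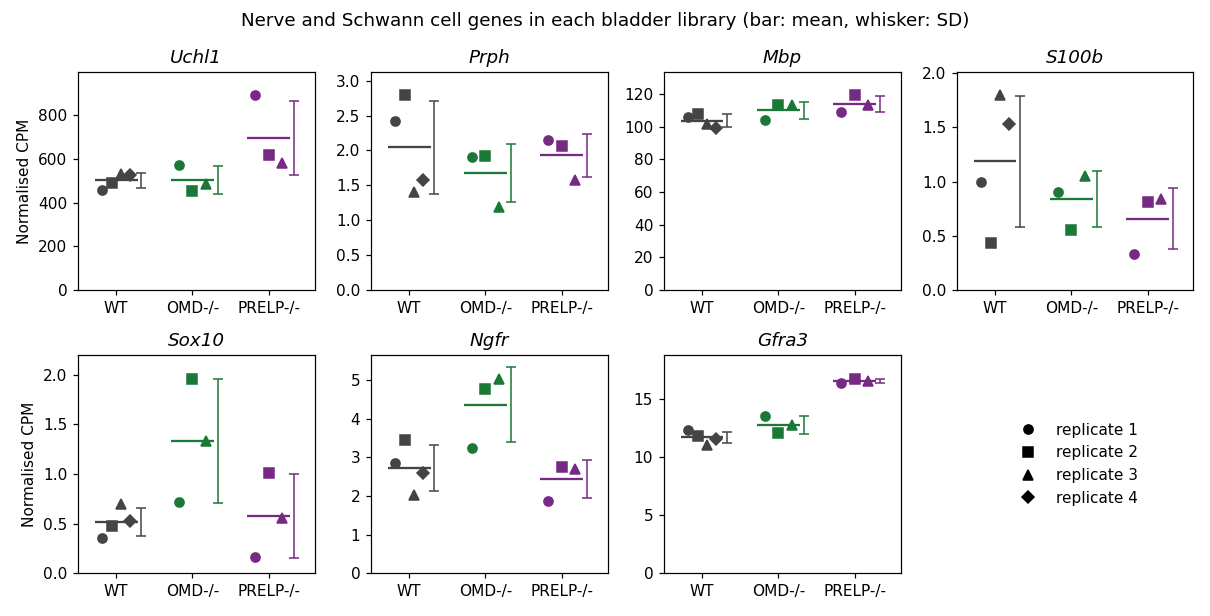
Normalised CPM of each of the 7 genes (1 panel per gene, linear axes from 0) in 4 WT, 3 OMD-/- and 3 PRELP-/- libraries. Points are libraries with the replicate number as symbol, bars are group means and whiskers are SD. The 3 PRELP-/- libraries of Gfra3 sit at 16.4 to 16.8 CPM, above all others, and the 3 OMD-/- libraries of Sox10 sit above all 4 WT libraries.

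*Gfra3* (chr18:34689898-34720387, minus strand) encodes the receptor subunit for artemin on sensory neurons and is also a marker of Schwann cell precursors. It had 253 to 619 counts per library. Its levels were 12.3, 11.8, 11.1 and 11.6 CPM in *WT*, 13.6, 12.0 and 12.8 CPM in OMD-/-, and 16.4, 16.8 and 16.6 CPM in PRELP-/-. The 3 PRELP-/- libraries, replicate 1 included, were nearly equal and above all 7 others, whereas OMD-/- overlapped *WT*. The log2 fold change in PRELP-/- was 0.48 ± 0.129 and its adjusted *p* of 0.0597 missed the threshold. It was 0.0132 without PRELP-/- replicate 1 and 0.0163 by DESeq2, and 0.0597 lay within a range of 0.00116 to 0.582 over 18 alternative settings, 4 of which passed. In OMD-/- the change was 0.11 ± 0.111, adjusted *p* = 0.504, and it was -0.06 when total counts replaced TMM scaling.

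The ligand of this receptor, *Artn*, had levels of 16.9, 17.4, 17.5 and 16.5 CPM in *WT*, 11.9, 15.4 and 14.3 CPM in OMD-/-, and 12.8, 14.5 and 14.0 CPM in PRELP-/-. Every knockout library was below every *WT* library, and neither difference passed (adjusted *p* = 0.0696 in OMD-/- and 0.144 in PRELP-/-). *Ret*, the signalling partner that GFRA3 requires, averaged 4.31, 6.70 and 4.95 CPM in *WT*, OMD-/- and PRELP-/-, and did not pass either (adjusted *p* = 0.0833 and 0.719).

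*Uchl1* (chr5:66676091-66687234, plus strand) had 10574 to 22981 counts per library. Its exons overlap those of *Uchl1os* on the opposite strand by 295 bases, and *Uchl1os* had a mean of 0.18 CPM. *Uchl1* levels were 457, 491, 532 and 524 CPM in *WT*, 573, 451 and 486 CPM in OMD-/-, and 890, 616 and 581 CPM in PRELP-/-. The PRELP-/- libraries were above all others, with replicate 1 far above its companions, and OMD-/- lay on both sides of *WT*. The summed level of 10 urothelial genes, none of them at 0, was 11100 to 12000 CPM in *WT*, 18300, 13400 and 13500 CPM in OMD-/- replicates 1 to 3, and 24300, 15800 and 15300 CPM in PRELP-/- replicates 1 to 3, so replicate 1 was highest in each knockout, as for *Uchl1*. The part of the urothelium in the level of *Uchl1* was not tested. The log2 fold change in PRELP-/- was 0.45 ± 0.188 (adjusted *p* = 0.17). Without PRELP-/- replicate 1 it was 0.24 (adjusted *p* = 0.0904). In OMD-/- it was -0.02 ± 0.101, adjusted *p* = 0.923.

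*Prph* (chr15:99055174-99058978, plus strand) encodes peripherin, the intermediate filament of peripheral axons. It had 26 to 122 counts per library and levels of 2.43, 2.79, 1.40 and 1.58 CPM in *WT*, 1.91, 1.92 and 1.19 CPM in OMD-/-, and 2.15, 2.07 and 1.58 CPM in PRELP-/-. The *WT* libraries held both the highest values and one of the lowest, and both knockouts lay within or close to their range. The log2 fold changes were -0.32 ± 0.314 in OMD-/- and -0.12 ± 0.306 in PRELP-/- (adjusted *p* = 0.481 and 0.833).

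Groups that did not overlap were counted too. In OMD-/- against *WT* this was so for 1 of 7 genes (*Sox10*), against 39.0% of all tested genes, and in PRELP-/- against *WT* for 3 of 7 (*Mbp*, *Gfra3* and *Uchl1*), against 30.3%. Read against these shares of all genes, neither count is a result about the 7 genes.

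The second comparison set the knockouts against each other. Of the 7 genes 0 passed in PRELP-/- against OMD-/- by edgeR's test, where 0.00633% of all tested genes passed, the single gene being *Prelp* itself. With same-numbered libraries as a replicate block 43 of all genes and 0 of the 7 passed. At an unadjusted *p* under 0.05 there were 2 of the 7 and 713 of all 15805 genes. *Ngfr* was lower in PRELP-/-, with a log2 fold change of -0.82 ± 0.267, and *Gfra3* was higher, at 0.38 ± 0.132. Both had an adjusted *p* of 0.69, as did *Uchl1* at 0.48 ± 0.22 and *Sox10* at -1.16 ± 0.616. PRELP-/- and OMD-/- libraries did not overlap for these first 3 genes, against 14.8% of all genes, and overlapped for *Sox10*. The changes of *Ngfr*, *Gfra3* and *Uchl1* passed with limma-voom and sample quality weights, which lower the weight of libraries that stand apart (adjusted *p* = 0.0104, 0.0128 and 0.0146). By that method 8.17% of all tested genes passed.

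**Figure D3:**
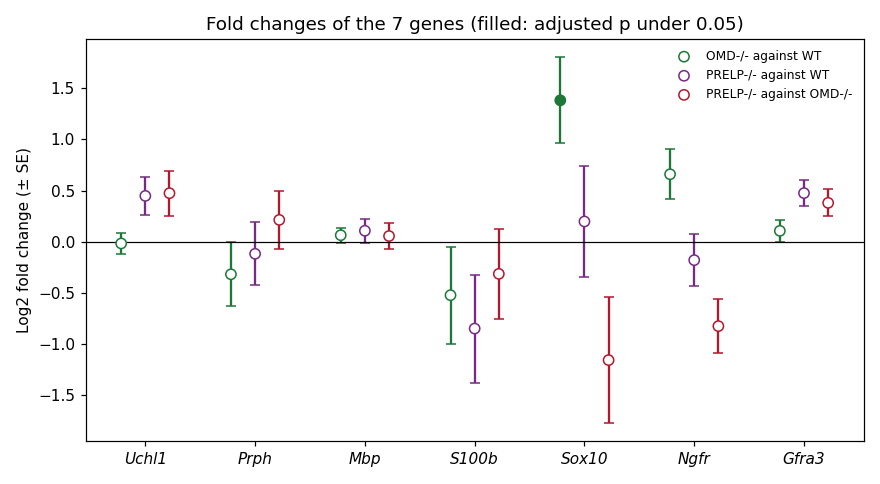
Log2 fold changes of the 7 genes with SE as whiskers, for OMD-/- against WT (green), PRELP-/- against WT (purple) and PRELP-/- against OMD-/- (red). Filled points passed an adjusted p of 0.05. Sox10 in OMD-/- at 1.38 is the 1 filled point, and Gfra3 and Uchl1 lie above 0 in PRELP-/- against both other groups.

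The 4 *WT* libraries were themselves divided. For each of the 7 genes replicates 1 and 2 lay on one side of replicates 3 and 4, as they did for 60.0% of 16647 genes. *S100b* averaged 0.715 CPM in replicates 1 and 2 and 1.67 CPM in replicates 3 and 4, *Prph* 2.61 and 1.49 CPM, *Ngfr* 3.14 and 2.30 CPM, and *Sox10* 0.419 and 0.614 CPM. The other 3 genes differed less, *Uchl1* by a log2 ratio of 0.16 and *Mbp* and *Gfra3* by -0.09 each. The summed level of 10 smooth muscle genes, none of them at 0, moved with this division, at 570 and 550 CPM in replicates 1 and 2 and 1710 and 1560 CPM in replicates 3 and 4, and was 684 to 1150 CPM in OMD-/- and 413 to 505 CPM in PRELP-/-. The endothelial list, at 501, 516, 245 and 231 CPM in *WT* replicates 1 to 4, and the skeletal muscle list, at 3.52, 3.62, 17.7 and 16.4 CPM, were divided too. The part of these cell types in the levels of the nerve genes was not tested. With replicates 1 and 2 as the only controls the log2 fold change of *S100b* in OMD-/- was 0.15, and with replicates 3 and 4 alone it was -1.02 (adjusted *p* = 0.0482). The corresponding values of *Prph* were -0.65 and 0.14.

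Across the 10 libraries the 7 genes did not vary as 1 group. The highest Pearson's *r* of log2 CPM between any pair was 0.754 for *Sox10* and *Ngfr*, followed by 0.718 for *Gfra3* and *Uchl1* and 0.647 for *Mbp* and *Gfra3*. The lowest were -0.659 for *Ngfr* and *Uchl1* and -0.648 for *S100b* and *Prph*. After each group's mean was removed, *Gfra3* and *Uchl1* gave 0.0374, while *Mbp* and *Ngfr* gave 0.858. These coefficients describe 10 libraries that differ in genotype and depth, and the part of either was not tested.

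Among 14465 genes with a mean of at least 1 CPM, the 3 whose log2 CPM followed each gene most closely were listed by the same measure. For *Sox10* they were *Prkcb* (0.975), *Dock2* (0.967) and *Kif11* (0.966), and for *Ngfr* they were *Gpm6b* (0.972), *Plxnc1* (0.964) and *Syk* (0.958). Of these genes *Prkcb*, *Dock2* and *Syk* are abundant in blood cells, *Gpm6b* and *Kif11* are not blood cell markers, and *Plxnc1* was not sorted. The summed level of 10 leukocyte genes, none of them at 0, was 655 to 717 CPM in *WT*, 926 to 1730 CPM in OMD-/- and 628 to 977 CPM in PRELP-/-. By the edgeR test 8 of these 10 genes rose in OMD-/-, as did 2377 of all 16647 tested genes. The summed level was 926 CPM in OMD-/- replicate 1 and 1690 and 1730 CPM in replicates 2 and 3, in which *Sox10* and *Ngfr* were highest too. The part of leukocytes in these levels was not tested. For *Gfra3* the closest genes were *Slc40a1* (0.958), *Tsc22d1* (0.958) and *Pcbp3* (0.957), and for *Uchl1* *Tmem246* (0.986), *Cbr3* (0.985) and *Fbxw5* (0.985). For *Mbp* they were *Nid2* (0.934), *Padi2* (0.928) and *Slc5a5* (0.927), for *S100b* *Pla2g4a* (0.904), *Fbxo30* (0.903) and *Nupl2* (0.897), and for *Prph* *Gm44349* (0.885), *Tmem201* (0.859) and *Igsf9* (0.857).

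The wider set of nerve genes gave the surroundings of these 7. Lists of myelin, Schwann cell and glia, neuron and axon, autonomic transmitter, neurotrophic ligand and neurotrophic receptor genes held 111 genes, of which 98 had more than 3 counts in some library and 68 were tested against *WT*. In OMD-/- 9 rose and 5 fell (20.6% of those tested, against 29.4% of all genes), with a median log2 fold change of 0.12. In PRELP-/- 1 rose and 3 fell (5.88%, against 7.29%), with a median of -0.02. Of 67 tested between the knockouts 0 passed by edgeR's test, and 10 passed with limma-voom and sample quality weights, by which 8.17% of all tested genes passed.

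Levels in *WT* showed which of these genes had most RNA per kilobase. Among myelin genes these were *Mal* (358 ± 14.9 CPM per kilobase, SD, n = 4 throughout), *Fa2h* (37.9 ± 1.95) and *Pmp22*. *Mal* encodes a lipid-raft protein that epithelia also make. Among Schwann cell and glia genes they were *Erbb3*, the adhesion molecule gene *L1cam* (13.2 ± 2.34) and *Matn2* (7.15 ± 0.374), and among neuron and axon genes *Uchl1*, *Gata3* and *Sncg* (6.86 ± 2.04). The transcripts of *Maged1* (50.6 ± 2.09), *Sort1* (31.6 ± 1.15) and *Erbb2* (30.5 ± 3.64), the highest of the receptor list, which also holds receptor partners, exceeded per kilobase those of the ligand genes *Artn* (7.09 ± 0.184), *Nrtn* (5.63 ± 2.46) and *Ntf5* (3.01 ± 0.11). The highest autonomic transmitter genes were *Penk* (1.1 ± 0.21), *Npy* (0.197 ± 0.293) and *Slc18a2* (0.179 ± 0.114). The place of *Npy* rested on *WT* replicate 1, at 0.632 CPM per kilobase, as the other *WT* libraries were at 0.0774 or below.

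Myelin genes moved both ways. Of 14 tested, 2 rose and 2 fell in OMD-/- (median -0.05) and 0 rose and 2 fell in PRELP-/- (median 0.01). These were 28.6% and 14.3%, against 29.4% and 7.29% of all genes. *Prx* was at 7.06, 8.33, 7.23 and 7.11 CPM in *WT*, 3.44, 4.52 and 3.48 CPM in OMD-/-, and 1.60, 4.58 and 3.07 CPM in PRELP-/-. All 6 knockout libraries were below all 4 *WT* libraries, and *Prx* fell by 0.98 ± 0.171 on the log2 scale in OMD-/- (adjusted *p* = 0.00206) and by 1.28 ± 0.31 in PRELP-/- (adjusted *p* = 0.0426). The PRELP-/- call of *Prx* was kept by 2 of 7 fits without a library, those without PRELP-/- replicate 1 or 2. Without *WT* replicate 3, which gave the highest value, the adjusted *p* was 0.109.

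*Cnp*, an enzyme of noncompact myelin, rose by a log2 fold change of 0.60 ± 0.0858 in OMD-/- (24.2 CPM in *WT*, 37.3 CPM in OMD-/-, adjusted *p* = 0.000662). In PRELP-/- it was at 27.0 to 34.4 CPM, above the 23.1 to 26.5 CPM of *WT*, and did not pass. Its exons overlap 154 bases of *Dnajc7* on the other strand, which had a mean of 98.4 CPM. *Egr2*, the transcription factor that drives myelination and is also induced in activated immune and stromal cells, was at 0.24 to 0.75 CPM in *WT* and at 0.53, 2.13 and 2.15 CPM in OMD-/- (1.76 ± 0.536, adjusted *p* = 0.0306). Its groups overlapped, and the call was lost without OMD-/- replicate 2 (0.131), OMD-/- replicate 3 (0.134), *WT* replicate 1 (0.0546) or *WT* replicate 3 (0.066). *Fa2h*, a hydroxylase of myelin lipids also used by epithelia, fell by 0.25 ± 0.0749 (adjusted *p* = 0.0286), which 2 of 7 fits without a library kept, those without *WT* replicate 1 or 4. The value was 0.125 without OMD-/- replicate 3.

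Of 20 tested Schwann cell and glia genes, 2 rose and 1 fell in OMD-/- (median 0.12), and 1 rose and 1 fell in PRELP-/- (median -0.16). These were 15.0% and 10%, against 29.4% and 7.29% of all genes. Beside *Sox10*, *Sostdc1*, a secreted antagonist of BMP and Wnt signalling, was at 3.04, 4.01, 2.41 and 2.15 CPM in *WT*, 9.07, 7.43 and 8.07 CPM in OMD-/-, and 11.6, 7.25 and 7.17 CPM in PRELP-/-. Both knockouts were far above *WT*, with log2 fold changes of 1.47 ± 0.214 (adjusted *p* = 0.000777) and 1.55 ± 0.278 (adjusted *p* = 0.0143). The latter was 0.0538 without *WT* replicate 3. *Col28a1*, a collagen of peripheral nerve, fell by 1.28 ± 0.386 in OMD-/- (adjusted *p* = 0.029) on 6 to 36 counts per library in these groups, which was kept without *WT* replicate 1 or 2, but in no other of the 7 fits that left out a library, and was 0.115 without OMD-/- replicate 2. In PRELP-/- *Col28a1* was at 0.11 to 0.419 CPM, below the 0.716 to 0.921 CPM of *WT*. *Erbb3* did not pass in either knockout (adjusted *p* = 0.976 and 0.512).

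Of 14 tested neuron and axon genes, 1 rose in OMD-/- (median 0.28), 7.14% against 29.4% of all genes, and 0 passed in PRELP-/- (median 0.11). The gene that rose, *Hand2*, a transcription factor of sympathetic neurons that fibroblasts and smooth muscle cells also use, was at 5.32 CPM in *WT* and 8.75 CPM in OMD-/- (0.69 ± 0.147, adjusted *p* = 0.00575), and its exons overlap *Hand2os1* by 461 bases. In PRELP-/- *Hand2* was at 6.96 to 8.19 CPM, above the 4.84 to 5.74 CPM of *WT*, and did not pass. The 10 fibroblast genes, none at 0, summed to 9110 to 10400 CPM in *WT*, 19800 to 23700 CPM in OMD-/- and 10700 to 21900 CPM in PRELP-/-, and their part in this was not tested. Only 2 of 18 autonomic transmitter genes could be tested against *WT*, and neither passed.

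Of 16 tested neurotrophic receptor genes 4 rose and 1 fell in OMD-/- (median 0.29). This share of 31.2% was near the 29.4% of all genes and the 28.6% of the myelin list. In PRELP-/- 0 rose and 1 fell (median 0.12), 6.25% against 7.29% of all genes. Read against these shares, neither count is a result about the receptor genes. *Sorcs2* and *Sort1* encode sortilin-family partners of the receptor encoded by *Ngfr*. *Sorcs2* was at 80.6, 78.0, 72.0 and 67.7 CPM in *WT* and at 146, 153 and 150 CPM in OMD-/- (0.99 ± 0.079, adjusted *p* = 1.99e-05). It was at 83.2, 151 and 146 CPM in PRELP-/- replicates 1 to 3, each above every *WT* library, and did not pass there. *Sort1* rose by 0.37 ± 0.076 and *Maged1*, whose product binds the same receptor, by 0.47 ± 0.076 (adjusted *p* = 0.00517 and 0.00142). In PRELP-/- replicates 1 to 3 *Sort1* was at 237, 355.5 and 360 CPM and *Maged1* at 179, 290 and 283 CPM. The *WT* means were 240 and 220 CPM, and neither gene passed in PRELP-/-. *Gfra2*, the neurturin receptor subunit, was at 6.82, 5.71, 2.37 and 3.51 CPM in *WT*, 9.17, 16.0 and 14.7 CPM in OMD-/- and 2.87, 9.07 and 11.7 CPM in PRELP-/-, and rose by 1.49 ± 0.326 in OMD-/- (adjusted *p* = 0.00788). Like *Ngfr*, it was highest in OMD-/- replicates 2 and 3.

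*Nradd*, a death-domain relative of the p75 receptor, was lower in both knockouts. It was at 6.22, 8.07, 6.66 and 6.67 CPM in *WT*, 3.68, 2.43 and 2.70 CPM in OMD-/-, and 4.20, 3.24 and 3.07 CPM in PRELP-/-. All 6 knockout libraries lay below *WT*, and its log2 fold changes were -1.25 ± 0.195 in OMD-/- (adjusted *p* = 0.00109) and -1.005 ± 0.199 in PRELP-/- (adjusted *p* = 0.0199). The latter call was kept without *WT* replicate 1 or PRELP-/- replicate 1 and lost without any other library, with 0.0874 without PRELP-/- replicate 2. Of 8 tested ligands 0 rose and 1 fell in OMD-/- (median -0.16), 12.5% against 29.4% of all genes, and 0 passed in PRELP-/- (median -0.30). The gene that fell, *Ntf5*, the neurotrophin that activates the TrkB receptor, went from 7.98 CPM in *WT* to 3.88 CPM in OMD-/- (-1.06 ± 0.176, adjusted *p* = 0.00156). In PRELP-/- replicates 1 to 3 *Ntf5* was at 9.94, 4.09 and 3.82 CPM.

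**Figure D4:**
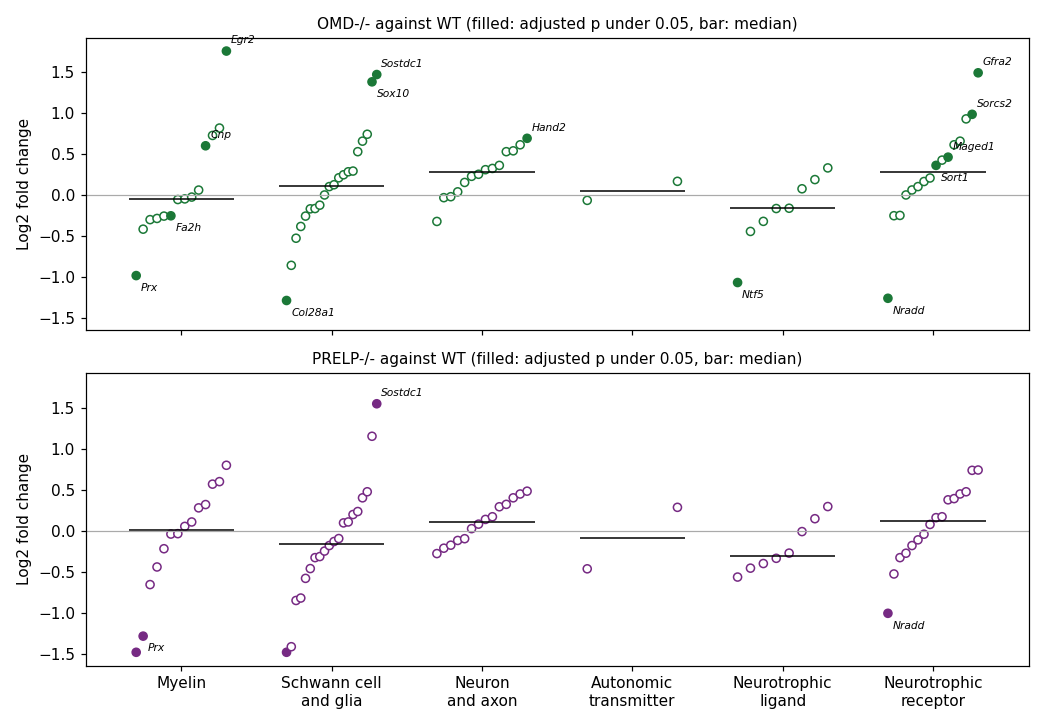
Log2 fold changes of the tested genes in 6 nerve lists, for OMD-/- (top) and PRELP-/- (bottom) against WT. Each point is a gene, ordered by value within its list, filled where the adjusted p was under 0.05 and named where the text describes it, and the black bar is the list median. In OMD-/- 9 genes are filled above 0 and 5 below, and in PRELP-/- 1 above and 3 below, a gene in more than 1 list being drawn in each.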

How the data were processed

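The authors deposited raw read counts for each of 55536 genes in 10 libraries. Per the file headers reads were aligned with HISAT2, whereas the submitters' processing notes name STAR 2.5.2b, featureCounts, GRCm38 and hg38. Whether counting used strand or the molecular identifiers is not given in the sources used here, so genes that overlap another are uncertain. Deposited DESeq2 comparisons (fold changes and p-values) were not used. Identifiers were matched to GENCODE vM21 (GRCm38), and exon lengths were merged over transcripts.

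Each pair of groups was fitted separately with edgeR 4.0.16 in R 4.3.3 (TMM, filterByExpr, two-sided quasi-likelihood test, Benjamini-Hochberg adjustment over all tested genes, threshold 0.05), tested on simulated data. CPM used TMM factors from all libraries (0.839 to 1.12), and log2 CPM a prior count of 2. Alternatives used limma 3.58.1 and DESeq2 1.42.0.

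Members and lists were chosen with earlier results of these data known. Named were the 7 genes, up to 6 genes per nerve list with the smallest adjusted p that passed, the 3 of highest level in each list, and the 3 closest by correlation, while the other markers of the cell type check and *Ret*, *Mag*, *Nefl* and *Tubb3* were named as receptor, ligand or marker of a member. *Map2*, *Isl1* and *Rbfox3* were chosen after their values were seen. Some genes that this rule chose are not reported here. Same-numbered OMD-/- and PRELP-/- libraries deviated together (r = 0.302, 0.18 and 0.148), so the count with a replicate block is given beside that of the fit without it, although the labels give no origin of the pairing, and *WT* numbers did not (r from -0.101 to 0.137). Intervals and floors cover counting error only.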

Additional observations from a re-analysis of the deposited data

Results flagged for a closer look

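Among 34 groups of 4 *WT* libraries tested for a library far from the others, 2 were found, and chance alone gives about 1 in 20. The highest *WT* library of *Prx*, replicate 2, was at 8.33 CPM, with its gap to the next library 0.863 of the group's range, above Dixon's critical value for 4 values. The highest *WT* library of *Npy*, the sympathetic transmitter neuropeptide Y, was replicate 1 at 0.358 CPM, with a gap of 0.878 of the range, on 18 counts against 0 or 1 in the other *WT* libraries.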

How the results depend on the processing

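The 1 call among the 7 genes, *Sox10* in OMD-/-, held under 10 of 18 settings. Counts of genes that passed, out of 4899 in OMD-/-, 1209 in PRELP-/- and 1 between the knockouts, were the least stable. They were 2951 to 4850, 475 to 3807 and 1 to 36 when a library was left out, 2485, 2485 and 3 with all 3 groups in 1 fit, and 1658, 13 and 0 with the close pairs of libraries summed. In PRELP-/- the count was 6829 with limma-voom and sample quality weights, 2571 by DESeq2, 115 with the replicate block, 119 with *WT* replicates 1 and 2 alone and 453 with replicates 3 and 4 alone. Between the knockouts it was 5 with no low-count filter, 1291 with limma-voom, 87 by DESeq2, 43 with the block and 4 with the Y-linked covariate.

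Of the 7 genes, 1 passed in OMD-/-. This was 0 with the block, with all 3 groups or with pairs summed, 2 with limma-voom, the Y-linked covariate or *WT* replicates 3 and 4 alone, and 0 to 2 when a library was left out. In PRELP-/- it was 1 with limma-voom, DESeq2 or all 3 groups and 0 to 1 without a library, and between the knockouts 3 with limma-voom. Of the nerve lists, 14 genes in OMD-/- became 9 with all 3 groups, 6 with pairs summed, 25 with *WT* replicates 3 and 4 alone and 10 to 18 without a library. The 4 in PRELP-/- became 21 with limma-voom, 9 by DESeq2, 8 with all 3 groups, 7 with total counts, 2 with the Y-linked covariate, 0 with the block, pairs summed or *WT* replicates 1 and 2 alone, and 0 to 13 without a library. Between the knockouts limma-voom gave 10. Summing pairs leaves fewer samples, and the other causes were not tested. The block changed no call of the 7 genes except that of *Sox10* in OMD-/-.

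None of the log2 fold changes of the 7 genes that turned sign was called. With total counts *Mbp* was -0.0973 in OMD-/-, -0.119 in PRELP-/- and -0.022 between the knockouts, *Sox10* -0.00113 in PRELP-/- and *Gfra3* -0.057 in OMD-/-. With *WT* replicates 1 and 2 alone *S100b* was 0.153 and *Uchl1* 0.0707 in OMD-/-. With replicates 3 and 4 alone *Sox10* was -0.067, *Ngfr* 0.0654 and *Prph* 0.348 in PRELP-/-, and *Prph* 0.14 in OMD-/-. With limma-voom *Ngfr* was 0.0803 and *Prph* 0.00991 in PRELP-/-, and *S100b* 0.064 between the knockouts. With the block *Sox10* was -0.0279 in PRELP-/- and *Uchl1* 0.00905 in OMD-/-. With the Y-linked covariate *Sox10* was 0.272 and *Prph* -0.0614 between the knockouts, and with pairs summed *Uchl1* was 0.0558 in OMD-/-. Without a library *Sox10* in PRELP-/- ranged from -0.479 to 0.621, *Uchl1* in OMD-/- from -0.1 to 0.0591 and *Prph* in PRELP-/- from -0.26 to 0.0513. Total counts, summed pairs and the choice of *WT* libraries were added after the data were seen. With 3 to 46 counts of *Sox10* and 6 to 50 of *S100b* per library, depth limits both genes.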
